A study of Mus musculus with 6 samples.

Results

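The 8 genes described here encode UFM1, a small ubiquitin-like protein, and proteins that attach it to targets or take it off again. They are UFM1, Ufc1, Ufl1, Ddrgk1, Cdk5rap3, Ufsp1, Ufsp2 and Odr4. They were chosen by name as known parts of the UFM1 pathway, with earlier results of these data known. Their rows were found in the deposited tables by symbol, ignoring case. Each member stood on 1 row, and all 8 were among the 12224 genes that passed a filter on low counts, out of 18134 gene names in the tables. The mouse UFM1 gene carries its symbol in capitals in the files and is printed that way.

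The study sequenced total RNA of mouse embryonic fibroblasts (MEFs), connective tissue cells grown from embryos. There were 3 libraries with the genotype Ufl1-ko, called Ufl1-KO here, and 3 with the genotype NC, a control label that is not spelled out. The series title also speaks of gene knockdown and of 24 h of hypoxia, but no library carries an oxygen label, so the only comparison is by genotype. The labels name no clone, line, embryo or separate culture, so genotype and line cannot be told apart, and a p-value here sets the groups against a spread between libraries that could be purely technical.

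Conjugation of UFM1 runs through a short cascade. The precursor of UFM1 is trimmed by the proteases UFSP1 and UFSP2, activated by an E1 enzyme, passed to the E2 enzyme UFC1 and joined to a lysine of the target by the E3 ligase UFL1. UFL1 works in a complex with DDRGK1, which anchors it to the membrane of the endoplasmic reticulum (ER), and with CDK5RAP3, an adaptor. The best known target is the ribosomal protein RPL26 on ribosomes docked at the ER, and UFSP2, held at the ER by ODR4, removes UFM1 again.

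The members lie on 7 chromosomes (mm10, GENCODE M21), and each is annotated as protein-coding. Ufl1 lies at chr4:25248600-25281821 on the minus strand and UFM1 at chr3:53853376-53863830 on the minus strand. Ufc1 (chr1:171288563-171295024) and Odr4 (chr1:150361305-150393080) share a chromosome, both on the minus strand. Ddrgk1 (chr2:130653960-130664659) and Cdk5rap3 (chr11:96907426-96916496) are on the minus strand as well, and Ufsp1 (chr5:137294629-137295665) and Ufsp2 (chr8:45975528-45996958) on the plus strand.

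The stretch just upstream of UFM1 is shown because UFM1, the modifier itself, rose most among the members apart from the low-count Ufsp1. These are the 250 bases before its RefSeq start site, chr3:53863808-53864057 (GRCm38.p6), read on the minus strand, with the letters ACGTG in capitals.
UFM1: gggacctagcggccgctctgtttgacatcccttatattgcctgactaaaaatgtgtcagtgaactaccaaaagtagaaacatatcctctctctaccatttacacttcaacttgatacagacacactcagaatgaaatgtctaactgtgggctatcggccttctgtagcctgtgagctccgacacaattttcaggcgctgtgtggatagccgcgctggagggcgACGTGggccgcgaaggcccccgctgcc

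ACGTG is the core that sites for XBP1, a transcription factor of the ER stress response, share with sites for the hypoxia-inducible factors. It was searched on both strands of windows from 250 bases before to 50 after each RefSeq start (GRCm38.p6), in which all 8 members had an entry. It stood in the windows of 4 members, UFM1, Ufl1, Cdk5rap3 and Ufsp2, and in 19.6% of the 32851 windows of all genes. Those windows belong to 27025 symbols, so some genes, Cdk5rap3 and Odr4 among them, have several windows. The share counted by gene was not computed. Each copy of ACGTG is shown with its flanks to compare the bases around the core, which is in capitals.
UFM1, chr3:53863818-53863846, minus strand: cgctggagggcgACGTGggccgcgaaggc
Ufl1, chr4:25281778-25281806, minus strand: ggctgaaggctgACGTGtctgccgtttcc
Cdk5rap3, chr11:96916484-96916512, minus strand: ctgaagacggcgACGTGgctgaaggaggc
Ufsp2, chr8:45975283-45975311, plus strand: aaccctttcccaACGTGctactgtaggcc
Of these members UFM1 was higher in Ufl1-KO, and Cdk5rap3, Ufsp2 and the targeted gene Ufl1 were lower. Whether the core bears on either direction was not tested. The ER stress elements ERSE and ERSE-II were in no member's window and in 0.119% and 0.0365% of all windows. TGACGTGG, which holds ACGTG, and TGATGNAAT were in no member's window either and in 0.676% and 0.965% of all windows. A match in letters is not evidence of binding, and a missing match says nothing of a factor.

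Library totals ran from 17472432 to 21831860 counts in Ufl1-KO and from 15887011 to 19779066 counts in NC. CPM below is a count scaled to a common depth, with TMM factors that correct for differences in RNA composition between libraries. NC replicate 1 stood apart from NC replicates 2 and 3, with a root mean square difference of 0.41 and 0.38 log2 CPM over all genes tested, against 0.26 between NC replicates 2 and 3 and 0.22 to 0.24 among the Ufl1-KO libraries. It was the NC library nearest to the Ufl1-KO mean for 6 of the 8 members, all but Ufc1 and Ddrgk1, and for 53.3% of all genes tested. The fibroblast label was checked on markers. Summed CPM of 11 fibroblast markers was 6270 to 6490 in Ufl1-KO and 11623 to 12420 in NC, and 8 of 10 tested were lower in Ufl1-KO. The largest parts in NC were Vim, Col1a1 and Col3a1, averaging 4425, 3434 and 1887 CPM. S100a4 was higher in Ufl1-KO (log2 fold change 0.45, SE 0.09). Thy1, which did not pass, averaged 0.888 CPM in Ufl1-KO and 0.839 CPM in NC. Lum averaged 0 and 0.0401 CPM and was too low to be tested. Summed CPM of 6 macrophage and leukocyte markers was 15.9 to 21.1 in Ufl1-KO and 31.3 to 36.6 in NC. All 3 tested were lower. Most of the sum was Cd68, which averaged 15.6 CPM in Ufl1-KO and 27.9 CPM in NC. Csf1r averaged 1.94 CPM in Ufl1-KO and 3.75 CPM in NC. Aif1 was at 0 in all Ufl1-KO libraries and averaged 1.24 CPM in NC. Adgre1 (0.377 CPM in Ufl1-KO and 0.403 CPM in NC) and Itgam (0.357 and 0.430 CPM) were too low to be tested. So was Ptprc, which marks all leukocytes, averaging 0.195 CPM in Ufl1-KO and 0.281 CPM in NC. Summed CPM of 6 endothelial markers was 5.94 to 6.90 in Ufl1-KO and 4.95 to 7.63 in NC, with 1 of 3 tested lower and Emcn at 0 in all 6 libraries. Summed CPM of 6 epithelial markers was 297 to 310 in Ufl1-KO and 261 to 359 in NC, with 1 of 3 tested higher. Most of that sum was Krt18, which averaged 295 CPM in Ufl1-KO and 312 CPM in NC. Summed CPM of 6 neural markers was 188 to 199 in Ufl1-KO and 156 to 219 in NC, with 1 of 4 tested higher and 1 lower. Most of it was Nes, which averaged 162 CPM in Ufl1-KO and 152 CPM in NC. The part of other cells in the results below was not tested.

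All 8 members differed between the groups, 4 of them higher in Ufl1-KO (UFM1, Ddrgk1, Ufc1 and Ufsp1) and 4 lower (Ufl1, Odr4, Ufsp2 and Cdk5rap3). The test was edgeR's quasi-likelihood test across all genes, with a Benjamini-Hochberg adjusted p below 0.05 as the threshold. In the same test 66.7% of all genes passed, 33.3% as higher and 33.4% as lower, so passing it does not set a member apart from other genes. With library size as the only scaling, 5365 genes were higher and 3119 lower, against 4069 higher and 4088 lower with TMM, and the median over all genes was a log2 fold change of 0.18, so changes of that size depend on the scaling. The CPM of the groups did not overlap for 7 of the 8 members, against 71.7% of all genes, and Cdk5rap3 was the exception. In bulk RNA, a change in the share of cells that carry an mRNA and a change in the amount per cell cannot be told apart.

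**Figure D1:**
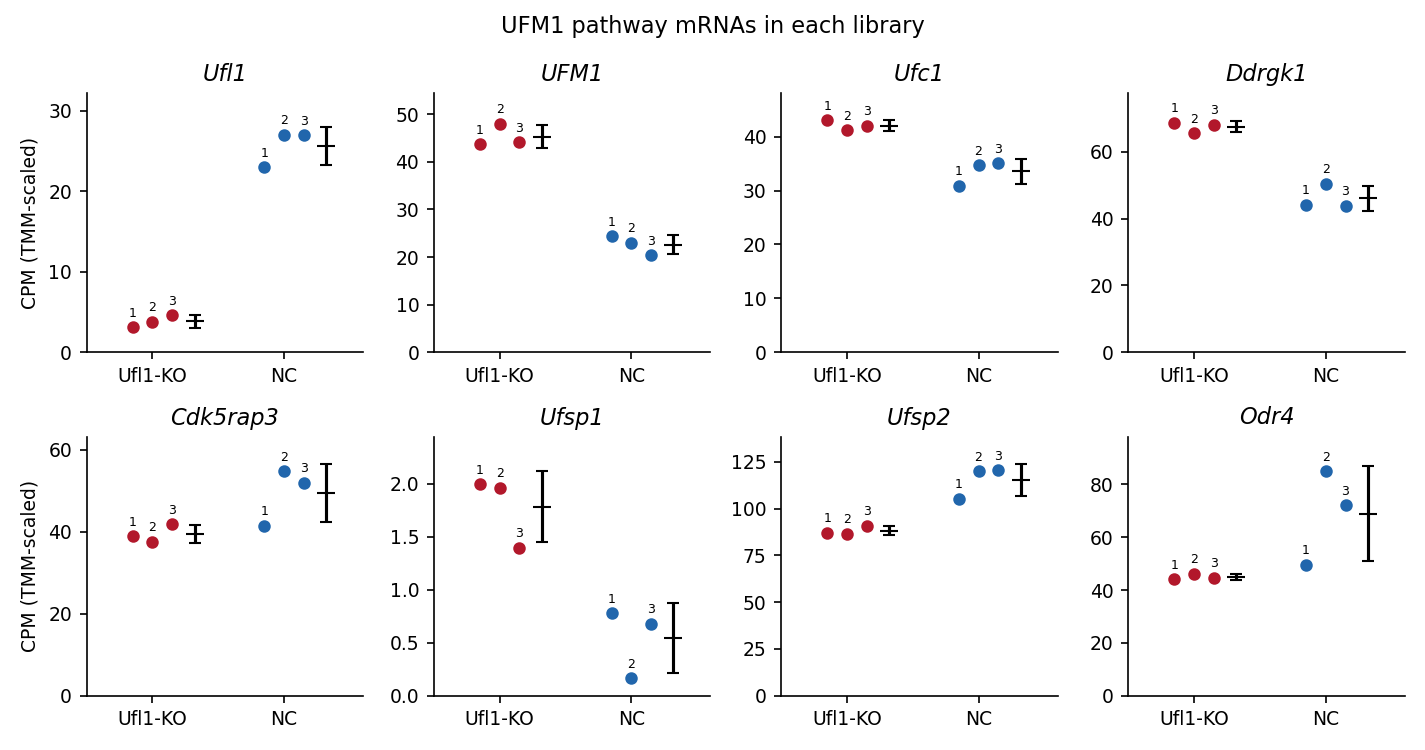
CPM (TMM-scaled, linear axis from 0) of each member in the 3 Ufl1-KO libraries (red) and the 3 NC libraries (blue). Points are libraries with their replicate number, and the black mark beside them is the mean with its SD. The groups stand apart for every member but Cdk5rap3, where NC replicate 1 (41.4 CPM) lies within the Ufl1-KO range, and NC replicate 1 is also the lowest NC library for Odr4 (49.6 CPM).

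Ufl1, the targeted ligase gene, had 3.08, 3.76 and 4.60 CPM in Ufl1-KO replicates 1 to 3 and 23.0, 27.0 and 27.0 CPM in NC replicates 1 to 3. Every Ufl1-KO library lay far below every NC library, and those values rest on 69 to 102 counts in Ufl1-KO and 382 to 497 counts in NC. The log2 fold change of Ufl1 was -2.75 (SE 0.15, edgeR adjusted p = 1.34e-06), which leaves 14.9% of the NC level. This was position 133 from the lowest fold change of all 12224 genes, so the targeted gene was not the one with the deepest fall. Which part of Ufl1 was altered is not in the labels, and whether the counts left in Ufl1-KO give rise to protein was not measured.

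The modifier gene UFM1 had 43.7, 48.0 and 44.1 CPM in Ufl1-KO and 24.3, 23.0 and 20.4 CPM in NC. All Ufl1-KO libraries were above all NC libraries, with a log2 fold change of 1.00 (SE 0.09, edgeR adjusted p = 1.89e-05) or 2.00-fold. UFM1 stood at position 885 from the highest fold change of the 12224 genes. It kept its direction and its call in all 19 alternative settings, with log2 fold changes of 0.94 to 1.18.

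Ufc1, the E2 enzyme that carries activated UFM1, rose less. It had 43.1, 41.2 and 42.0 CPM in Ufl1-KO and 30.9, 34.7 and 35.1 CPM in NC, with no overlap. Ufc1 had a log2 fold change of 0.33 (SE 0.08, edgeR adjusted p = 0.00550). With library size as the only scaling it was 0.51, over 1.5 times the value with TMM.

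The partners of UFL1 in the ligase complex went opposite ways. Ddrgk1, the ER membrane anchor, had 68.7, 65.6 and 68.0 CPM in Ufl1-KO and 44.1, 50.4 and 43.8 CPM in NC. The groups did not overlap, and Ddrgk1 rose by a log2 fold change of 0.55 (SE 0.08, edgeR adjusted p = 0.000266). Cdk5rap3, the adaptor, had 38.9, 37.5 and 41.8 CPM in Ufl1-KO and 41.4, 54.7 and 51.9 CPM in NC. NC replicate 1 lay within the Ufl1-KO range, so the lower mean in Ufl1-KO rests on NC replicates 2 and 3. The log2 fold change of Cdk5rap3 was -0.32 (SE 0.11, edgeR adjusted p = 0.0258), and it was -0.42 (edgeR adjusted p = 7.26e-06) without NC replicate 1. The call ended with library size scaling (-0.14, edgeR adjusted p = 0.256) and on the FPKM scale (-0.19 on log2(FPKM + 1), limma adjusted p = 0.162). It also ended without Ufl1-KO replicate 1 or 2 or NC replicate 2 or 3, with edgeR adjusted p-values from 0.0835 to 0.0976.

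Among the proteases, Ufsp1 and Ufsp2 moved in opposite directions. Ufsp1 was the least abundant member in NC, with 46, 36 and 31 counts in Ufl1-KO and 13, 3 and 10 counts in NC. That is 2.00, 1.96 and 1.398 CPM in Ufl1-KO and 0.781, 0.163 and 0.681 CPM in NC, with no overlap. Its log2 fold change of 1.75 (SE 0.42, edgeR adjusted p = 0.00482) is the largest rise of the 8, and also the least precise because of these few counts. It ran from 1.28 without NC replicate 2, the library with 3 counts, to 2.17 without NC replicate 1, and was 0.85 on the log2(FPKM + 1) scale, which understates changes of low genes.

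Ufsp2 had 87.1, 86.6 and 90.9 CPM in Ufl1-KO and 105, 119.9 and 120.3 CPM in NC. All Ufl1-KO libraries were below all NC libraries, although NC replicate 1 was nearest to them. Ufsp2 fell by 0.38 on the log2 scale (SE 0.07, edgeR adjusted p = 0.00133). With library size scaling its log2 fold change was smaller, at -0.20, but still past the threshold (edgeR adjusted p = 0.0263), and it was -0.23 on log2(FPKM + 1).

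Odr4, the ER anchor of UFSP2, had 44.1, 46.1 and 44.6 CPM in Ufl1-KO and 49.6, 85.1 and 72.2 CPM in NC. The Ufl1-KO libraries were nearly equal, whereas NC replicate 1 lay just above them and far below NC replicates 2 and 3. The log2 fold change of Odr4 was -0.62 (SE 0.16, edgeR adjusted p = 0.00850), and it ran from -0.43 without NC replicate 2 to -0.80 without NC replicate 1. The deposited counts of Odr4 were whole numbers in Ufl1-KO and in NC replicate 1, but 1565.48 and 1060.44 in NC replicates 2 and 3, the only fractional values among the members. On the log2(FPKM + 1) scale the call ended (-0.40, limma adjusted p = 0.0558).

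Levels of different genes were compared per length, as FPKM (fragment counts scaled for transcript length and depth), from the authors' deposited values. In Ufl1-KO the order from the highest to the lowest was Ufsp2, Ddrgk1, Ufc1, Cdk5rap3, Odr4, UFM1, Ufsp1 and Ufl1. In NC it was Ufsp2, Ddrgk1, Ufc1, Cdk5rap3, Odr4, Ufl1, UFM1 and Ufsp1. The upper 5 places were thus the same, and Ufl1 stood last in Ufl1-KO and sixth in NC.

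Ufsp2 averaged 58.8 ± 1.99 FPKM in Ufl1-KO and 69.2 ± 4.61 FPKM in NC (SD, n = 3 each). Ddrgk1 averaged 58.1 ± 1.84 FPKM in Ufl1-KO and 35.9 ± 2.73 FPKM in NC. In Ufl1-KO the ranges of Ufsp2 and Ddrgk1 overlapped, and in NC they did not. Ufc1 had 45.0 ± 1.23 FPKM in Ufl1-KO and 31.8 ± 1.89 FPKM in NC. UFM1 had 9.83 ± 0.548 FPKM in Ufl1-KO and 4.40 ± 0.565 FPKM in NC, below Ufsp2, Ddrgk1, Ufc1, Cdk5rap3 and Odr4 in both groups. Its place rests on the length used, since the deposited counts and FPKM of UFM1 imply 4627 to 4890 bases. Ufl1 had 1.18 ± 0.238 FPKM in Ufl1-KO and 7.29 ± 0.856 FPKM in NC. Neighbours in the order overlapped for Ufsp2 with Ddrgk1 in Ufl1-KO and for Cdk5rap3 with Odr4 in NC, and for no other pair of neighbours in either group. The highest member exceeded the lowest 50.01-fold in Ufl1-KO and 121-fold in NC.

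**Figure D2:**
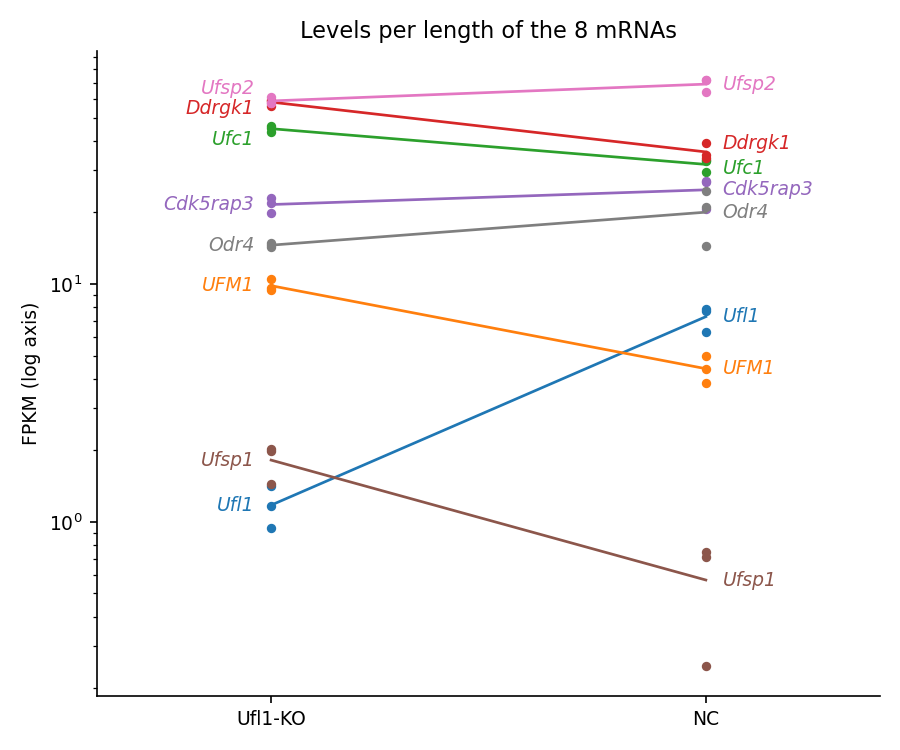
Deposited FPKM (log axis) of the 8 members in Ufl1-KO (left) and NC (right). Points are libraries and lines join the group means. Ufl1 stands last in Ufl1-KO (1.18 FPKM) and sixth in NC (7.29 FPKM), UFM1 stands above Ufl1 in Ufl1-KO and below it in NC, and Ddrgk1 reaches the level of Ufsp2 only in Ufl1-KO.

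Ratios between members within a library do not depend on how libraries are scaled to each other. As ratios of FPKM they do carry the gene lengths behind the deposited values, which varied between libraries for some members. With CPM in place of FPKM the log2 difference was 2.28 against 2.05 for Ufsp1 to Ufsp2, and 0.68 against 0.67 for UFM1 to Ufc1. Of 6 ratios fixed for pairs that act in the same step or complex, 5 did not overlap between the groups. For single genes the CPM did not overlap in 71.7% of all genes tested, and for other pairs of genes the share was not computed. Of the 5, Ufl1 to Ddrgk1 and Ufl1 to Cdk5rap3 include the targeted gene. Each of the 5 gave p = 0.1 in an exact two-sided permutation test, the smallest value that 3 libraries against 3 allow. The adjusted p was 0.12 over the 6 exact tests, so none could pass the threshold.

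The ratio of Ufl1 to Ddrgk1 was 0.0160, 0.0207 and 0.0239 in Ufl1-KO, against 0.181, 0.197 and 0.232 in NC. The ratio of Ufl1 to Cdk5rap3 was 0.0433, 0.0583 and 0.0618 in Ufl1-KO, against 0.304, 0.288 and 0.290 in NC. Ligase mRNA was thus low beside both of its partners in every Ufl1-KO library. The ratio of Cdk5rap3 to Ddrgk1 was 0.370, 0.355 and 0.387 in Ufl1-KO, against 0.596, 0.686 and 0.799 in NC, a log2 difference of -0.89. The partners therefore separated from each other in each library, also in the comparison with NC replicate 1, in which Cdk5rap3 alone did not stand apart.

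The ratio of UFM1 to Ufc1, modifier to E2, was 0.205, 0.240 and 0.213 in Ufl1-KO, against 0.168, 0.134 and 0.116 in NC, a log2 difference of 0.67. Ufsp1 relative to Ufsp2 was 0.0353, 0.0344 and 0.0235 in Ufl1-KO, against 0.0112, 0.00344 and 0.0104 in NC, so Ufsp2 had by far the higher FPKM of the pair in all 6 libraries. The exception was Ufsp2 to Odr4, protease to anchor, at 4.03, 3.89 and 4.19 in Ufl1-KO, against 4.41, 2.91 and 3.43 in NC. These overlapped (log2 difference 0.19, exact permutation p = 0.4), with NC replicate 1 the highest of all 6. The log2 difference was 0.05 without NC replicate 2 and 0.35 without NC replicate 1.

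**Figure D3:**
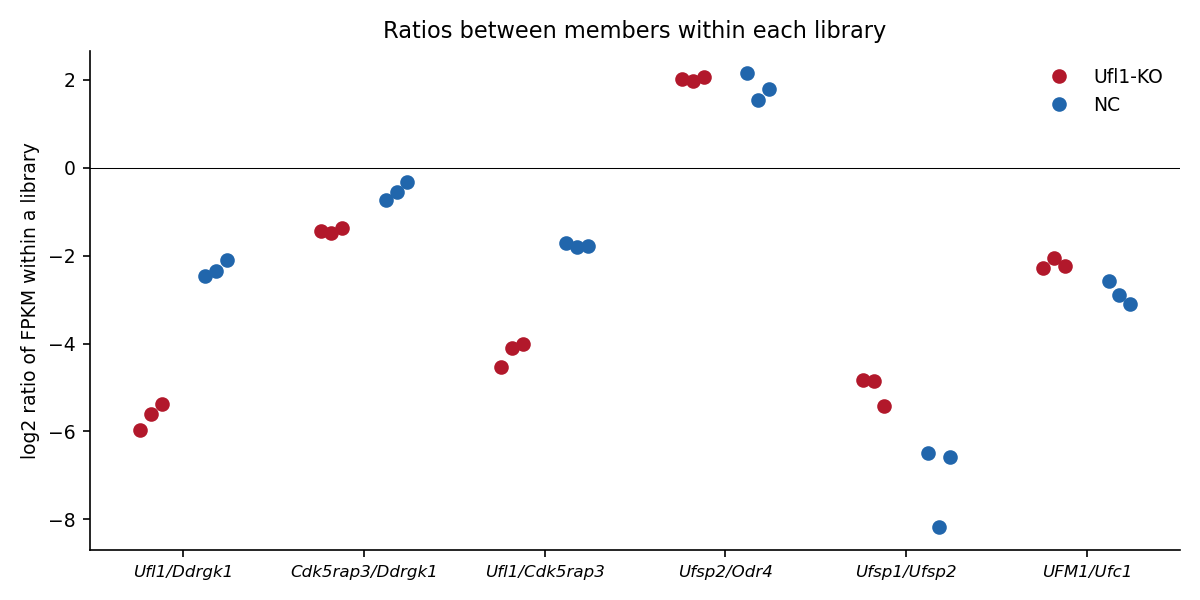
Log2 ratio of deposited FPKM between 2 members within each library, with Ufl1-KO (red) left of NC (blue) for each ratio and 1 point per library. The groups overlap only for Ufsp2/Odr4, and the Ufl1/Ddrgk1 ratio lies lowest relative to NC (mean log2 ratio -5.65 in Ufl1-KO and -2.30 in NC).

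Reads of overlapping genes can be shared in counting, and no strand setting is given, so the neighbours of each member were read beside it where the tables have them. The largest overlap is at Ufl1, which shares 22500 bases with Gm11906, annotated as a processed transcript on the other strand, and Cdk5rap3 shares 227 bases with D030028A08Rik, of the same type and also on the other strand. Neither was matched by name in the tables, so they were not analysed here, and whether their reads enter the counts of Ufl1 or Cdk5rap3 was not tested. Ufsp2 overlaps Ankrd37, which lies on the other strand, by 57 bases, and Ankrd37 had 32.6, 31.9 and 29.2 CPM in Ufl1-KO and 41.5, 37.3 and 33.1 CPM in NC. Ankrd37 was lower like Ufsp2 (log2 fold change -0.26, SE 0.10, edgeR adjusted p = 0.0427), and its call ended in 11 of 19 alternatives. Odr4 shares 243 bases with Tpr, a nuclear pore gene on the other strand. Tpr had 434.7, 428.9 and 417.4 CPM in Ufl1-KO and 296.9, 305.5 and 324.2 CPM in NC, so it rose (0.47, SE 0.06, edgeR adjusted p = 0.000118) while Odr4 was lower.

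Ufsp1 lies 38 bases from Srrt and 162 bases from Ache. Srrt, an RNA processing factor, had 138.6, 143.0 and 129.2 CPM in Ufl1-KO and 76.7, 58.2 and 65.9 CPM in NC, a log2 fold change of 1.03 (SE 0.10). It is many times more abundant than Ufsp1 and rose with it, and whether reads of Srrt reach the few counts of Ufsp1 was not tested. Ache, which encodes acetylcholinesterase, went the other way, at -0.96 (SE 0.22). Ache was low too, averaging 1.34 CPM in Ufl1-KO and 2.63 CPM in NC, and its call ended in 1 of 19 alternatives.

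Near Ddrgk1, Itpa (log2 fold change 0.94, SE 0.12), an enzyme that clears faulty purine nucleotides, and Lzts3 (0.59, SE 0.14) rose as Ddrgk1 did. Usp21 (-0.08, SE 0.10) and Dedd (0.02, SE 0.08), on either side of Ufc1, did not pass the test. Copz2 beside Cdk5rap3 had -0.20 (SE 0.15) and did not pass, though it did without NC replicate 1 (-0.35, edgeR adjusted p = 0.00231), and Prr15l on its other side, at 2.33 CPM in Ufl1-KO and 1.06 CPM in NC, rose (1.11, SE 0.29). Lrp2bp beside Ufsp2 had 0.18 (SE 0.20) and did not pass, and Prg4, the lubricin gene nearest Odr4 at higher coordinates, fell by 1.72 on the log2 scale (SE 0.13). Fhl5 and Fut9 beside Ufl1, Trpc4 beside UFM1 and Pdc beside Odr4 were too low to be tested, Fhl5 and Pdc at 0 in all 6 libraries.

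**Figure D4:**
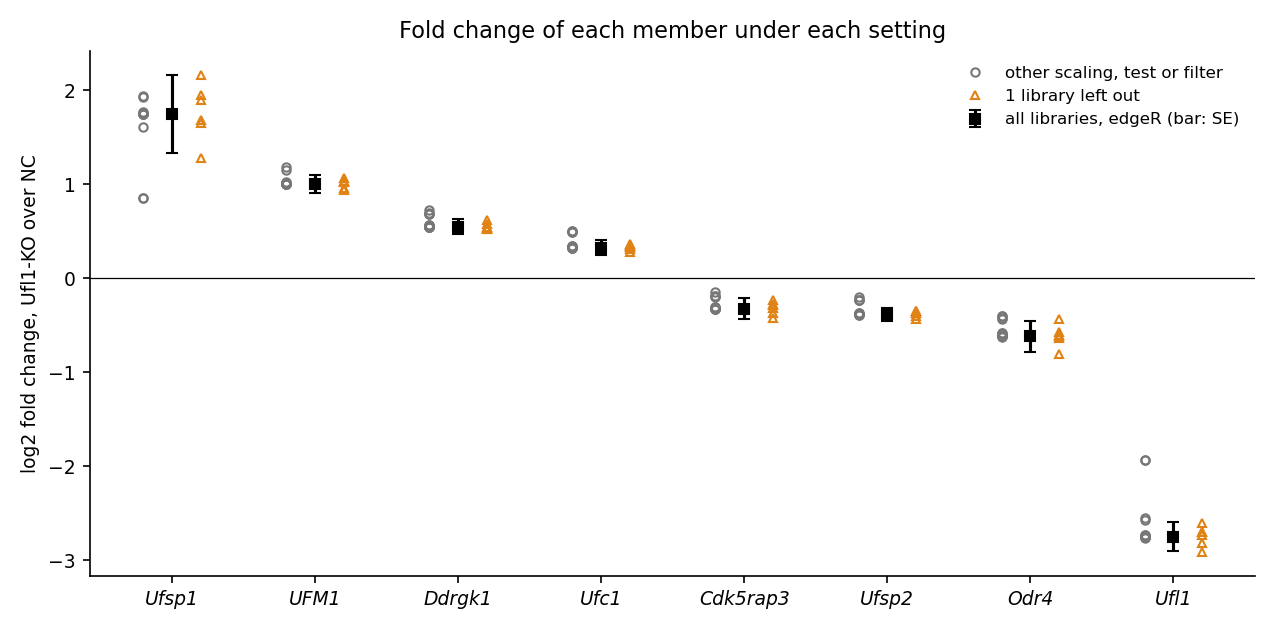
Log2 fold change of each member, Ufl1-KO over NC. Black squares with SE bars are the edgeR fit on all libraries, grey circles other scalings, tests, filters or FPKM fits, and orange triangles fits with 1 library left out. No point crosses 0, and the widest spreads are those of Ufsp1 (0.85 to 2.17) and Ufl1 (-2.91 to -1.93).

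The genes with profiles most like that of Ufl1 over the 6 libraries were Igf2, C4b and Etnk2, with root mean square differences of 0.154, 0.163 and 0.176 in centred log2 CPM among 10410 candidates. Igf2, an embryonic growth factor gene, had 8.68, 8.23 and 9.69 CPM in Ufl1-KO and 46.0, 60.4 and 55.4 CPM in NC. Those most like UFM1 were Wdr43 (0.0287), a ribosome biogenesis factor gene, SRSF2 (0.0364), a splicing factor gene, and Scara3 (0.0494). Wdr43 had 85.4, 94.2 and 89.3 CPM in Ufl1-KO and 49.3, 44.9 and 39.2 CPM in NC, the same order of the libraries as UFM1. With 2 groups this far apart, such likeness mainly reflects a like fold change.

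Of the targets and readers of UFM1, 15 symbols were listed, including an older and a newer symbol of Mre11, and 12 were tested. Those not tested were SEC61B, at 0 in all libraries, and Trp53 and the older symbol Mre11a, which matched no gene name. Whether Trp53 stands under another name was not tested. Among the 12, 7 were lower, 2 higher and 3 not called, against 33.4% of all genes lower and 33.3% higher. The share that passed in either direction was near the 66.7% of all genes. The median log2 fold change was -0.38 against 0.00 for all genes tested. The 7 that fell include 4 ribosomal proteins: RPL26 (-0.50, SE 0.08), RPS3 (-0.67, SE 0.08), Rps10 (-0.48, SE 0.09) and RPS20 (-0.62, SE 0.11). RPL26 had 277 ± 15.6 CPM in Ufl1-KO and 393 ± 39.2 CPM in NC (SD, n = 3 each). Ribosomal protein genes have close copies, so their counts are uncertain. The transcription coactivator gene Trip4 (-0.46, SE 0.08), the DNA repair nuclease gene Mre11 (-0.29, SE 0.07) and the immune checkpoint ligand gene Cd274 (-0.63, SE 0.18) fell too.

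The 2 targets that rose act at the ER. These are 2 genes only, and Saysd1, which also acts there, was not called higher. Rpn1, a subunit of the oligosaccharyltransferase that glycosylates new proteins, had 378 ± 3.24 CPM in Ufl1-KO and 211 ± 2.71 CPM in NC (log2 fold change 0.84, SE 0.05). Syvn1, the ubiquitin ligase HRD1 of ER-associated degradation, had 72.7 ± 3.003 CPM in Ufl1-KO and 41.0 ± 4.52 CPM in NC (0.83, SE 0.09). Cyb5r3, Eif6 and Saysd1, the translocon-associated reader of modified ribosomes, did not pass, at -0.04, 0.01 and -0.22. With library size scaling 5 of the 12 were lower and 3 higher.

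Genes of other ubiquitin-like conjugation systems did not follow 1 direction. Of 15 genes of NEDD8 conjugation 10 rose and none fell (median 0.24), against 33.3% of all genes higher and 33.4% lower. The share of these 15 that passed in either direction was near the 66.7% of all genes. Tested for exceeding a 1.5-fold change, 1 of the 15 was higher. The 10 included Dcun1d2 (1.41, SE 0.16), which helps transfer NEDD8 to cullins, the E2 gene Ube2f (0.48, SE 0.09), Nedd8 itself (0.42, SE 0.08) and UBE2M (0.36, SE 0.07). At an unadjusted p below 0.05 none of these 15 was lower either, since the 5 others had p of 0.487 or more, and DESeq2 and limma-voom also called 0 lower. Of 17 genes of SUMO conjugation 9 rose and 4 fell (median 0.19), so 13 of 17 passed, near the 66.7% of all genes, with the protease gene Senp5 (0.78, SE 0.11), Sumo3 (0.45, SE 0.07) and the E1 subunit gene Sae1 (0.37, SE 0.06) higher and Senp7 (-0.45, SE 0.07) lower. Of 10 genes of ATG12 and ATG8 conjugation, which builds autophagosomes, 4 rose and 3 fell (median -0.03), again near the 66.7% of all genes. Atg4d (0.88, SE 0.09), Atg5 (0.62, SE 0.08), Atg3 (0.65, SE 0.09) and Atg4a (0.70, SE 0.12) were higher, and Atg10 (-1.12, SE 0.25), the E2 gene for ATG12, Atg4c (-0.44, SE 0.09) and Atg16l1 (-0.29, SE 0.08) were lower. The UFM1 pathway had 4 members higher and 4 lower, and no difference between the systems was tested.

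Of 15 targets of the ER unfolded protein response 13 rose, against 33.3% of all genes, and none fell (median 0.51). Hyou1 (1.64, SE 0.08), Creld2 (1.37, SE 0.09), Pdia6 (0.74, SE 0.05) and Manf (1.39, SE 0.11), all chaperones or folding helpers of the ER, were among them. Xbp1, a factor of this response whose targets are known to include UFM1 pathway genes, rose as well (0.62, SE 0.08). Hsp90b1 (-0.12) and Herpud1 (-0.13) did not pass, with unadjusted edgeR p-values of 0.134 and 0.212. DESeq2 and limma-voom also called 0 of the list lower, but 1 was called lower without NC replicate 1. With 1 library left out, 10 to 13 of the list were called higher. UFM1, Ddrgk1, Ufc1 and Ufsp1 moved in the direction of most of this list, and Odr4, Ufsp2, Cdk5rap3 and the targeted gene Ufl1 in the other. Over all genes 33.3% were higher and 33.4% lower, and a link between the members and this list was not tested. This list, like the others, was chosen with earlier results of these data known, so its count is not an independent test.

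**Figure D5:**
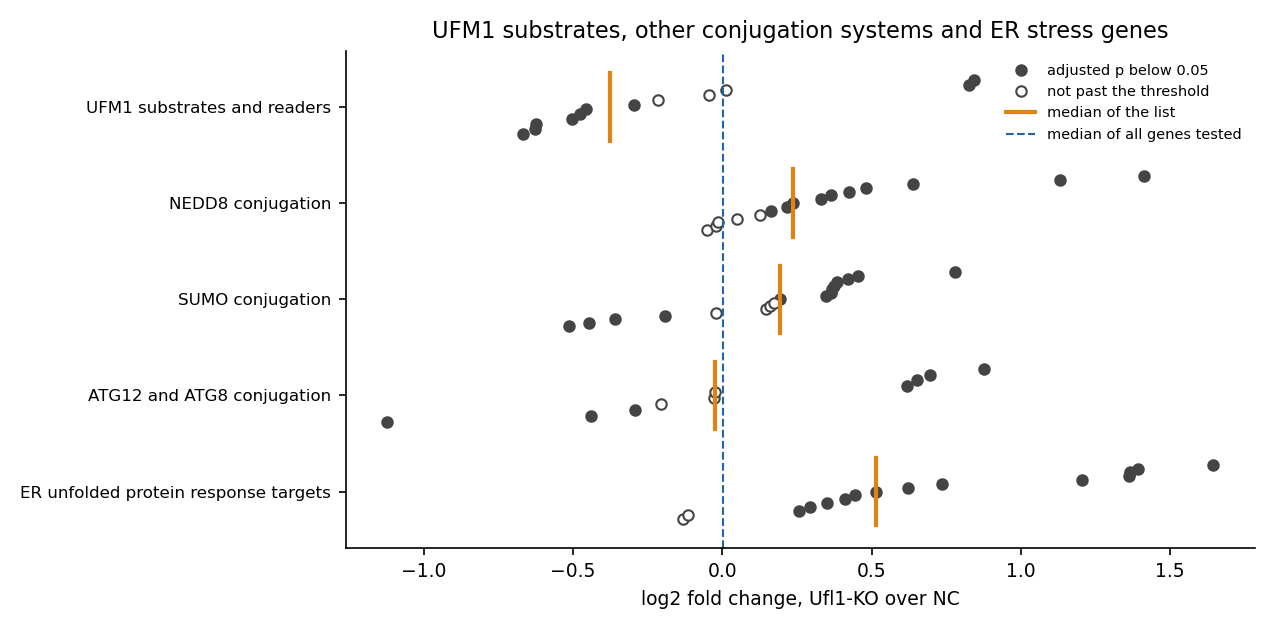
Log2 fold change, Ufl1-KO over NC, of each tested gene of 5 lists, filled where the edgeR adjusted p is below 0.05. Orange bars are list medians and the dashed line is the median of all genes tested (0.00). The list of targets of the ER unfolded protein response lies highest (median 0.51) and that of UFM1 substrates and readers lowest (median -0.38). The lists were chosen with earlier results of these data known.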

How the data were processed

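The submitters' processing notes list the builds GRCh38, hg38 and mm10 and the tools featureCounts 2.0.0, STAR 2.7.7a and fastp 0.20.1, with no role for any. Neither an annotation release nor a strand setting is given in the sources used here, nor what made some counts fractional. The authors deposited estimated counts and FPKM values per gene and library. The expected counts were rounded, 1225 of 22274 rows without a gene name were left out (0.594% to 0.661% of the counts), and rows sharing a name in any case were summed. The fit used edgeR 4.0.16 (R 4.3.3) with TMM, filterByExpr and genotype as the only term. It was also run on simulated data, but the outcome is not given here and no result above rests on it. SE is the log2 fold change over the root of its F statistic. Alternatives used DESeq2 1.42.0 and limma 3.58.1, limma also on log2(FPKM + 1) and log2(FPKM + 0.1), and are given below. Summaries and figures used Python 3.11.15, pandas 2.3.3, numpy 2.4.6 and matplotlib 3.10.9.

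Every pair of libraries of a group differed beyond sampling noise (chi-square per gene of 2.32 or more). All members were named, all tested neighbours, up to 4 genes with the smallest p of each list (8 for substrates) with exceptions, and the 3 genes with average log2 CPM of at least 2 most like Ufl1 and UFM1. Atg10, Atg4c, Atg16l1, Cd274, Cyb5r3, Eif6, Saysd1, SEC61B, Xbp1, Hsp90b1, Herpud1, Ptprc, Aif1, Emcn, Krt18 and Nes fall outside that rule and were picked with their values already in view. The same holds for Cd68, Csf1r, Adgre1, Itgam, Vim, Col1a1, Col3a1, Thy1, Lum, S100a4, Mre11a and Trp53. Members and lists were chosen with earlier results of these data known.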

Additional observations from a re-analysis of the deposited data

How the results depend on the processing

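The directions of all 8 members held in all 19 alternatives, and UFM1, Ufl1 and Ufsp1 also kept their calls. Library size alone gave a median log2 fold change over all genes of 0.18, against 0.00 with TMM, and gave 5365 higher and 3119 lower genes against 4069 and 4088. Tested for exceeding a 1.5-fold change, 1214 genes passed as higher and 1587 as lower, among them 2 members higher and 1 lower: the calls of Ufc1 (0.33), Ddrgk1 (0.55), Cdk5rap3 (-0.32), Ufsp2 (-0.38) and Odr4 (-0.62) ended. In the 1.5-fold test the lists shrank too. Of the NEDD8 genes 1 was higher and 0 lower, and of the SUMO genes 0 passed either way. Of the ATG12 and ATG8 genes 1 was higher and 1 lower. Of the UFM1 substrates and readers 2 were higher and 0 lower, and of the ER unfolded protein response targets 6 were higher and 0 lower. In each of the 3 FPKM fits 2 members were lower. There Odr4 was at -0.40 with a pseudocount of 1, with or without the filter, and -0.42 with 0.1, and Cdk5rap3 at -0.19 and -0.20. With library size alone Cdk5rap3 was at -0.14. Leaving out 1 library gave 3488 to 4783 genes higher and 3607 to 4594 lower, 4 members higher and 3 or 4 lower, and -0.42 to -0.24 for Cdk5rap3. Neighbours that did not pass changed sign in some fits. Usp21 was at 0.095 by library size, 0.092 in the FPKM fits (0.098 with a pseudocount of 0.1), and -0.124 to 0.0182 with 1 library left out. Dedd was at -0.0134 to 0.0903 with 1 library left out, and at -0.0041 without NC replicate 3. Copz2 was at 0.010 in the FPKM fits (0.012 with 0.1), and Lrp2bp at -0.026 (-0.046 with 0.1). The cause was not tested. With replicate number as a block 3892 genes were higher and 3910 lower, and 4 members each way. The labels do not say what libraries with the same number share. Deviations of same-numbered libraries from their group means correlated at 0.02, -0.18 and 0.01, and not every library correlated best with its own number. With 3 libraries per group such deviations are not independent, so these correlations cannot decide whether the numbers mark pairs. The count of Ufsp1, 3 to 46 per library, limits its precision.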

Other observations

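The deposited counts and FPKM together imply a length for each gene in each library. For UFM1 it was 4890 bases in 4 libraries, 4821 in Ufl1-KO replicate 2 and 4627 in NC replicate 1, and the longest UFM1 transcript of GENCODE M21 has 4890 bases. Ufsp1, with 1 annotated transcript of 1037 bases, had an implied length of 1037 in 4 libraries, but 614 in NC replicate 2 and 840 in NC replicate 3, which lifts the FPKM of those libraries. For Ufl1 the implied length was 3401 to 3449 bases in Ufl1-KO and 3172, 3262 and 3448 bases in NC.

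SEC61B, which encodes a translocon subunit used by all cells and a known UFM1 neighbour on the ER, is listed at 0 in all 6 libraries and was not tested.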
